A study of Mus musculus with 10 samples.

Results

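Lipopolysaccharide (LPS), the endotoxin of Gram-negative bacteria, was set against saline in 4 of the 10 RNA-seq libraries of a mouse series, the 2 libraries titled LPS and the 2 titled Saline. Cells from collagenase- and dispase-digested inguinal fat of male C57BL/6 mice aged 6 to 8 weeks were grown to confluence and are labelled primary white adipocytes. One group received LPS at 100 ng/ml and the other saline, each for 24 h, and the other 3 groups of 2 libraries received BAFF at 500 ng/ml, APRIL at 500 ng/ml or norepinephrine at 1 mM for the same time. By its title the series asks how the cytokines BAFF and APRIL act in diet-induced weight gain, and LPS and norepinephrine are further treatments of the same cultures. Nothing in the labels ties replicates to separate mice or dishes, and p-values therefore measure only the spread between these libraries. The genes of interest were those outside the cytokine and acute-phase genes that LPS is best known for. Of 28987 genes listed, 13179 reached 1 TPM (a gene's share of a library's transcripts, scaled to a fixed total) in at least 2 of the 4 libraries and were tested. Of these, 13068 lay outside 111 cytokine, chemokine, complement, acute-phase, Toll-like receptor and other innate response genes that were set aside by symbol. The symbols set aside include Nos2, Acod1, Cd14, Nfkbia, Nfkbiz and Cfd.

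LPS is bound by CD14 and the Toll-like receptor 4 complex, which signals through adaptor proteins and kinases to NF-kB, AP-1 and interferon-regulatory factors. These factors switch on cytokines and chemokines, and also enzymes, protease inhibitors, receptors and proteins that limit the response itself. Adipocytes, their progenitors and the macrophages of fat all carry this receptor, and inflammatory signals are known to lower many genes of the mature adipocyte. Tlr4, the receptor gene, stood at 10.5 and 11.7 TPM with saline and 16.8 and 14.3 TPM with LPS and did not pass the test (log2 fold change 0.45 ± 0.19, adjusted p = 0.279).

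The cultures held both adipocyte and progenitor transcripts. The 12 adipocyte markers summed to 8395 and 9666 TPM with saline and to 5509 and 6097 TPM with LPS, and 1 of the 11 tested, Adrb3, passed as lower. Fabp4 made up most of each sum, at 5452 and 6287 TPM with saline and 4028 and 4384 TPM with LPS. Pparg overlapped between the groups, at 80.7 and 88.5 against 86.2 and 80.1 TPM, and the other markers were lower in both LPS libraries. Fewer cells of a type and less RNA per cell cannot be told apart in such samples. The 10 markers of adipose progenitors and fibroblasts summed to 10407 and 9197 TPM with saline and to 10586 and 9844 TPM with LPS. Each sum was mostly Col1a1 and Col3a1. Among the 9 tested, Pi16, Dcn and Pdgfra passed as higher, and Ly6a and Lum were higher in both LPS libraries without passing. Lower in both were Col1a1 (5697 and 5122 against 4994 and 4874 TPM), Thy1 (375 and 343 against 295 and 277 TPM) and Pdgfrb (83.8 and 88.1 against 58.1 and 72.4 TPM). Of all tested genes, 24.8% had both LPS libraries above both saline libraries and 25.8% had both below. The sum of the macrophage markers was 1362 and 456 TPM in saline replicates 1 and 2 and 1587 and 413 TPM in LPS replicates 1 and 2, and 0 of the 12 tested passed by limma. Most of that sum was Lyz2, at 1018 and 312 TPM with saline and 1192 and 304 TPM with LPS. Too low to be tested were Ptprc (0 and 0.129 against 0.144 and 0 TPM), Cd163 (0.605 and 0.0834 against 0.997 and 0.0922 TPM) and Cd74 (0.360 and 0.490 against 1.68 and 0.876 TPM). Within both replicate numbers Itgam and Adgre1 were higher with LPS (Itgam 15.96 and 4.79 against 62.9 and 20.7 TPM, Adgre1 29.8 and 9.23 against 68.8 and 21.6 TPM), and C1qa and Trem2 were lower (C1qa 47.8 and 10.9 against 26.9 and 2.75 TPM, Trem2 27.8 and 11.6 against 14.1 and 2.99 TPM). Skeletal muscle markers ran the other way, at 21.5 and 18.1 TPM in the replicate 1 libraries of saline and LPS and at 143 and 122 TPM in the replicate 2 libraries. Of the 10 neutrophil markers, Camp and S100a8 were tested and both rose. The list summed to 1.998 to 3.75 TPM with saline and 29.5 to 29.9 TPM with LPS, while Ngp, S100a9 and Retnlg were listed at 0 in all 4 libraries. The 11 smooth muscle and pericyte markers summed to 1523 and 1631 TPM with saline and to 1117 and 1286 TPM with LPS. Of the 10 tested, Cspg4 and Myh11 passed as lower and 0 passed as higher. Pdpn, the 1 lymphatic endothelial marker tested, passed as higher, at 41.3 and 27.1 against 115 and 79.7 TPM. The sums of the T and natural killer, B lymphocyte, dendritic and epithelial lists were each at or below 11.6 TPM in the 4 libraries.

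**Figure D1:**
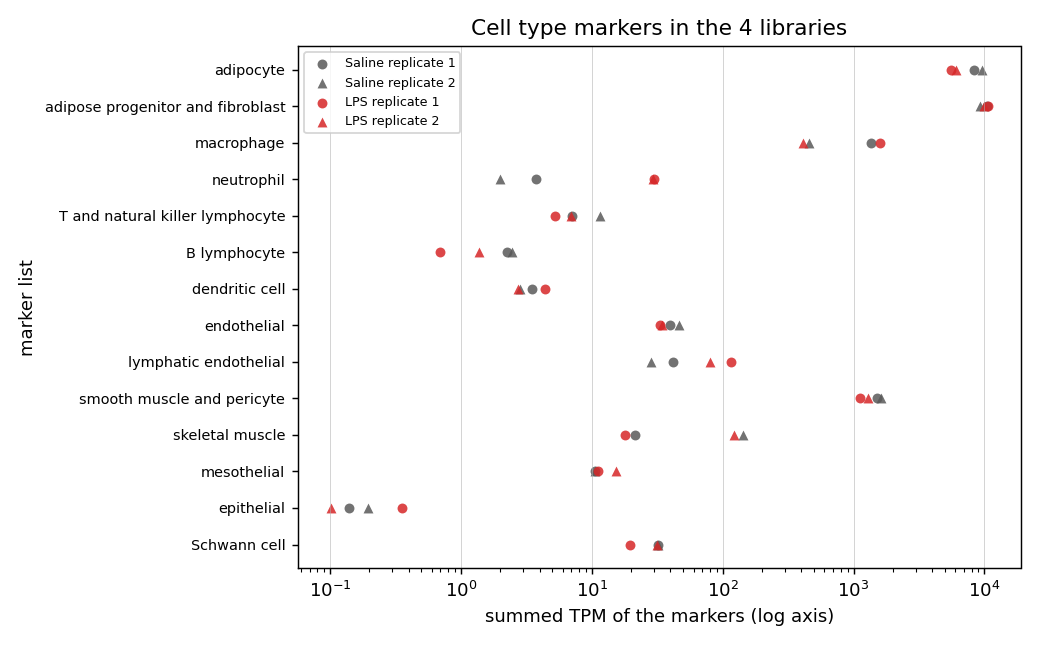
Summed TPM of each cell type's markers (log x axis) in the 2 saline libraries (grey) and the 2 LPS libraries (red), circles for replicate 1 and triangles for replicate 2. Macrophage markers lie near 1362 and 1587 TPM in the replicate 1 libraries and near 456 and 413 TPM in the replicate 2 libraries, while adipocyte markers are lower in both LPS libraries.

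The files hold no read counts, so the depth behind each value is unknown and the spread between libraries is the only measure of error. Library sums ran from 953553 to 964726 TPM, 12845 to 13115 genes reached 1 TPM in a library, and mitochondrially encoded genes held 14.96 to 22.4% of transcripts. Across the tested genes, on the log2 scale, the LPS libraries correlated at 0.976 with each other and at 0.944 to 0.963 with the saline libraries. Correlations of the 2 libraries labelled APRIL with the rest were lower, 0.840 to 0.879. They enter the pooled estimate of spread used in every test here, and the ranges given with the gene lists include the fit without them. That fit ended the calls of Ifi44, Slc7a5 and Fmo1 (adjusted p = 0.053, 0.0518 and 0.05001).

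LPS changed 523 genes outside the cytokine and acute-phase set. By limma on log2(TPM + 1), with Benjamini-Hochberg adjustment over all 13179 genes at 0.05, 431 genes rose (3.27%) and 141 fell (1.07%), 4.34% in either direction. Outside the set-aside genes 384 rose and 139 fell, which is 89.1% of all rises and 98.6% of all falls. Their median log2 fold changes were 1.13 and -1.06, beside a median of -0.02 over all tested genes, and 227 and 77 of them changed at least 2-fold. Of the set-aside genes 47 rose and 2 fell. The 384 risen genes together took 2.21 and 1.98% of transcripts with saline and 6.12 and 4.78% with LPS. Those set-aside genes that rose took 0.216 and 0.195% with saline and 3.41 and 2.65% with LPS, of which the single gene Saa3 made up 2.06 and 1.46%. The 139 fallen genes went from 0.981 and 1.01% to 0.429 and 0.472%.

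The number of genes called fell when single libraries were left out. The group concerned then held 1 library and its mean was less certain, so fewer genes could pass. The drop therefore does not by itself show that changes came from 1 library. The 523 became 84 when saline replicate 2 was left out and 148 when LPS replicate 1 was. Leaving out saline replicate 1 gave 150, and LPS replicate 2 gave 358. Leaving out the libraries labelled APRIL raised it to 927 (594 higher, 333 lower), and leaving out the mitochondrially encoded genes moved the split of rises and falls from 384 and 139 to 321 and 191. Those mitochondrial genes held 20.2 and 22.4% of transcripts with saline and 15.9 and 17.1% with LPS, and the median log2 fold change of all genes without them was -0.09. Of the 152 called genes that the naming rules and additions chose, 25 passed the threshold in every alternative tried, including with each of the 4 libraries left out. These 25 were Serpinb2, Ube2l6, Ackr3, Sod2, Zc3h12a, Rab32, Gbp2b, Gbp2, H2-Q4, S1pr3, U90926, Fabp7, Thbd, Tnfaip6, Twist2, Cebpd, Smpd1, Ptprn, Rnd1, Cyp1b1, Derl3, Cilp, Trib3, Adh1 and Sfrp2. In the sentences below, every adjusted p is from the limma fit, a fold change is a difference of log2(TPM + 1) ± SE, which understates the change of genes with low TPM, and each pair of TPM values gives replicate 1 and then replicate 2. Of the 4 libraries, Mmp10, U90926, Gdnf, Bdkrb1, Fpr1, Fpr2, Pi16 and Camp reached 1 TPM only with LPS. Irf4, Osr2 and Sult1a1 reached it only with saline. Such genes passed the filter through 1 group alone, which fixed the direction of their change.

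**Figure D2:**
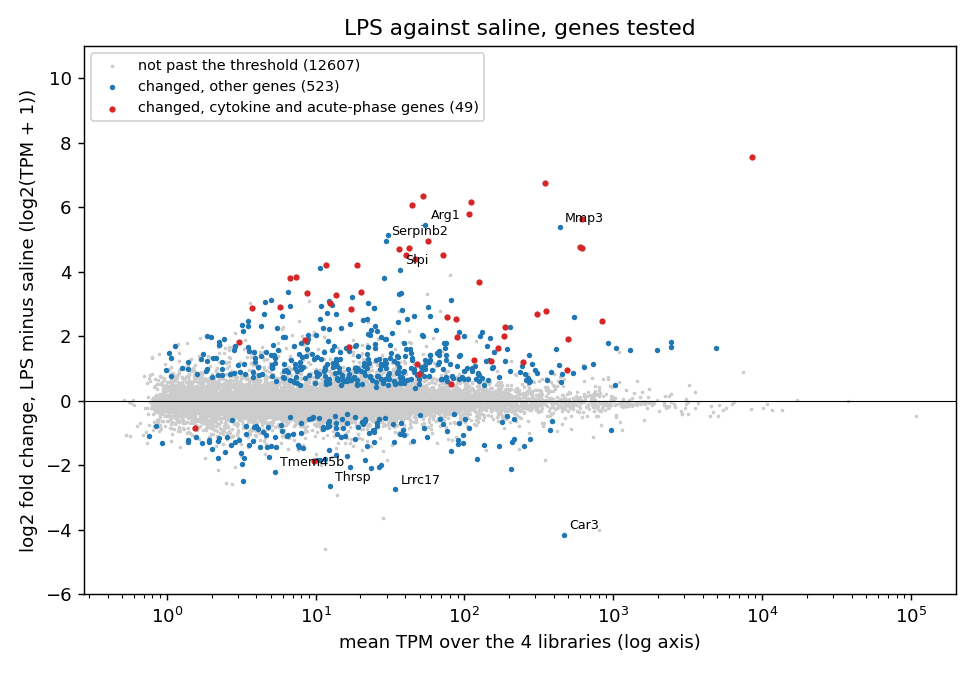
Each point is a tested gene, with its mean TPM over the 4 libraries (log x axis) and its log2 fold change, LPS minus saline (y axis). Among the changed genes, 523 (blue) lie outside the cytokine and acute-phase set and 49 (red) within it, and grey points did not pass the threshold.

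The promoters of 4 risen genes are shown because each holds a match to the NF-kB consensus, the sequence bound by the factor best known for carrying the LPS signal to DNA. They are the rises named by the rule, without a near-identical copy, that had the smallest adjusted p and a match within the 250 bases before the start, and were picked after the matches were seen. Bcl3, whose match begins after the start, was not among them. Each run is the 250 bases before the RefSeq transcription start (GRCm38.p6, the build named mm10), 5′ to 3′ on the gene's strand, with the NF-kB match in capitals.
Sod2, chr17:13007589-13007838, plus strand: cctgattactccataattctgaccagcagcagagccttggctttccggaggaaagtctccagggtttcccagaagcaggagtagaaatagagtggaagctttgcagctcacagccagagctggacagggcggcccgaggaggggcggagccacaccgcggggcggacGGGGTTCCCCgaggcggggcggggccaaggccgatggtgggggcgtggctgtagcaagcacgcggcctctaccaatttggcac
Irf1, chr11:53769764-53770013, plus strand: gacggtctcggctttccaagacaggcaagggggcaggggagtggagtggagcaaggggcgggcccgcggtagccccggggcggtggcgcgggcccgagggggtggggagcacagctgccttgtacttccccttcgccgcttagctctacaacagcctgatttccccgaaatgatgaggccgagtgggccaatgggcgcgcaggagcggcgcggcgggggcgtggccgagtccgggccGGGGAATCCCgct
Ubd, chr17:37193642-37193891, plus strand: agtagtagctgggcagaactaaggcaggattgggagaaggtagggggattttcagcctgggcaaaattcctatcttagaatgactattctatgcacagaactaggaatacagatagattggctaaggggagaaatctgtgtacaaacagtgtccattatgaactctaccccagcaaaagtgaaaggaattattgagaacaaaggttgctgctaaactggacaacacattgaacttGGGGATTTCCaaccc
Sema4a, chr3:88459102-88459351, minus strand: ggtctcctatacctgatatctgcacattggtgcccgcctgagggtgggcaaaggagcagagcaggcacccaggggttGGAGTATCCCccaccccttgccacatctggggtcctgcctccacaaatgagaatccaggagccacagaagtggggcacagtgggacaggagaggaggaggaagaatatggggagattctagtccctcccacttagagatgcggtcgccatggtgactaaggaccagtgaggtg
The match begins 83 bases before the start in Sod2, 13 in Irf1, 15 in Ubd and 173 in Sema4a.

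Matches were not frequent in absolute terms. In windows of 300 bases (250 before and 50 after the start), both strands searched, an NF-kB match stood in 5.29% of the promoters of tested genes and in 10.8% of the 381 promoters found for 283 of the 384 risen genes. It stood in 7.14% of 126 promoters of fallen genes and in 29.7% of 37 promoters of the risen cytokine and acute-phase genes. The interferon response element, searched as GAAA, any 2 bases and GAAA, stood in 3.06% of the promoters of tested genes, 7.35% of those of risen genes and 5.56% of those of fallen genes. The AP-1 motif TGANTCA stood in 5.30, 11.5 and 6.35% of these, and the C/EBP motif TTGCNNAA in 8.50, 13.9 and 7.14%. Matches of different motifs may overlap, some genes have several promoters, and these shares are a description without a test. Of the 15 largest rises, 14 had a promoter in the RefSeq table and 2 of these held an NF-kB match, Ubd and H2-Q6. Both stromelysin genes, Mmp3 and Mmp10, held an AP-1 match, beginning 46 and 63 bases before the start.

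Sod2 and Irf1 rose with little spread. Sod2, the mitochondrial superoxide dismutase (ENSMUSG00000006818, mm10 chromosome 17, 13006846 to 13040063), stood at 50.2 and 45.3 TPM with saline and 218 and 208 TPM with LPS (log2 fold change 2.14 ± 0.16, adjusted p = 0.000843). Irf1, an interferon-regulatory transcription factor, stood at 27.9 and 23.8 TPM with saline and 64.2 and 61.6 TPM with LPS (log2 fold change 1.25 ± 0.15, adjusted p = 0.00417). Ubd encodes the ubiquitin-like protein FAT10 and stood at 6.10 and 5.35 TPM with saline and 55.6 and 77.9 TPM with LPS (log2 fold change 3.32 ± 0.40, adjusted p = 0.00506). Sema4a, a membrane semaphorin, stood at 3.81 and 2.64 TPM with saline and 18.5 and 10.1 TPM with LPS (log2 fold change 1.81 ± 0.29, adjusted p = 0.0155). In all 4 genes both LPS libraries lay above both saline libraries, as they did for 24.8% of all tested genes. The 4 were chosen from genes called as risen. LPS replicate 1 was the higher for Sema4a and the lower for Ubd. Sod2 kept the call with each library left out in turn. Adjusted p among the rest reached 0.0771 (Sema4a) without LPS replicate 1, 0.0561 (Sema4a) without saline replicate 1 and 0.133 (Sema4a) without saline replicate 2.

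Among the 15 largest rises outside the set-aside genes were matrix proteases and protease inhibitors. Mmp3 (stromelysin-1, ENSMUSG00000043613, chromosome 9, 7445822 to 7455975) stood at 25.8 and 10.5 TPM with saline and 1306 and 405 TPM with LPS (log2 fold change 5.37 ± 0.70, adjusted p = 0.00638). Its neighbour Mmp10 (stromelysin-2, chromosome 9, 7502352 to 7510240) was low with saline, at 0.167 and 0.128 TPM, and stood at 19.8 and 5.87 TPM with LPS (log2 fold change 3.38 ± 0.45, adjusted p = 0.0066). Both proteases cleave matrix proteins, and both were over 1.5 times as high in LPS replicate 1 as in replicate 2. Serpinb2, the plasminogen activator inhibitor of type 2 (ENSMUSG00000062345, chromosome 1, 107511423 to 107535478), stood at 1.11 and 0.722 TPM with saline and 60.1 and 56.9 TPM with LPS (log2 fold change 4.96 ± 0.30, adjusted p = 0.000395), with LPS libraries that differed little. Slpi, a secreted inhibitor of leukocyte serine proteases, stood at 2.65 and 2.71 TPM with saline and 109 and 33.5 TPM with LPS (log2 fold change 4.06 ± 0.51, adjusted p = 0.00584). Serpinb2 kept the call whichever of the 4 libraries was left out. Elsewhere in this group the adjusted p rose to at most 0.0648 (Mmp10) without saline replicate 2.

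Arg1 and Ass1, enzymes of arginine metabolism, rose. Arg1, the arginase that splits arginine into ornithine and urea, stood at 1.02 and 0.363 TPM with saline and 189.9 and 27.02 TPM with LPS (log2 fold change 5.46 ± 0.85, adjusted p = 0.0131), so that its 2 LPS values lay far apart. Ass1, argininosuccinate synthase, which makes the precursor of arginine from citrulline, stood at 23.3 and 10.6 TPM with saline and 149 and 142 TPM with LPS (log2 fold change 3.13 ± 0.40, adjusted p = 0.00598), and the LPS libraries were close. The list of polyamine, arginine-derived and creatine metabolism does not hold Arg1. Of its 21 tested genes 1 rose, Ass1, and 0 fell (4.76% called, beside 4.34% of all genes), and 1 fell in the fit without the libraries labelled APRIL. Transcripts of Ass1 share up to 99.5% identity with those of the gene model Gm5424, so reads may be split between them. Every one of the calls given here was lost when some single library was left out. Arg1 lost it without saline replicate 1 and saline replicate 2 (adjusted p up to 0.11) and Ass1 lost it without LPS replicate 1 (adjusted p = 0.0535).

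Lipid mediators and lipid carriers were also among the largest rises. Fabp7, a fatty acid-binding protein known mainly from the nervous system, stood at 1.98 and 2.99 TPM with saline and 43.4 and 21.8 TPM with LPS (log2 fold change 3.21 ± 0.31, adjusted p = 0.00202). Ch25h, which hydroxylates cholesterol to an antiviral oxysterol, stood at 5.79 and 2.66 TPM with saline and 51.02 and 30.4 TPM with LPS (log2 fold change 3.02 ± 0.50, adjusted p = 0.0172). Ptgs2, the inducible cyclooxygenase of prostaglandin synthesis, stood at 5.27 and 4.70 TPM with saline and 55.6 and 32.5 TPM with LPS (log2 fold change 2.87 ± 0.40, adjusted p = 0.00793). In these 3 genes LPS replicate 1 was over 1.5 times LPS replicate 2 on the TPM + 1 scale. No LPS value overlapped a saline value, which the rule that chose the genes required. Among these genes Fabp7 stayed past the threshold whichever library was left out, while Ch25h lost it without LPS replicate 1 and saline replicate 2 (adjusted p up to 0.139) and Ptgs2 lost it without LPS replicate 1, saline replicate 1 and saline replicate 2 (adjusted p up to 0.0702).

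Interferon-inducible genes and a survival factor made up most of the rest. Gbp2b, a guanylate-binding protein of cell-autonomous defence, stood at 2.74 and 1.65 TPM with saline and 21.8 and 25.00 TPM with LPS (log2 fold change 2.95 ± 0.25, adjusted p = 0.00111). Ifi44, an interferon-induced protein, stood at 2.07 and 1.39 TPM with saline and 17.3 and 28.4 TPM with LPS (log2 fold change 3.10 ± 0.67, adjusted p = 0.0441), with 1 norepinephrine library at 12.4 TPM and the other at 1.48 TPM. H2-Q6, a non-classical class I histocompatibility gene, stood at 13.7 and 10.2 TPM with saline and 137 and 66.6 TPM with LPS (log2 fold change 2.92 ± 0.35, adjusted p = 0.00474), and Bcl2a1b, an anti-apoptotic member of the BCL2 family, at 1.36 and 1.32 TPM with saline and 31.9 and 8.80 TPM with LPS (log2 fold change 2.94 ± 0.57, adjusted p = 0.0312). Both have close copies, H2-Q7 and H2-Q4 for the first and Bcl2a1a and Bcl2a1d for the second, so their own levels are uncertain. U90926, annotated as protein-coding, stood at 0.317 and 0.0617 TPM with saline and 13.2 and 6.56 TPM with LPS (log2 fold change 3.13 ± 0.30, adjusted p = 0.00184). Gbp2b and U90926 kept the call with each library left out in turn. For the others the highest adjusted p was 0.148 (Ifi44) without LPS replicate 1, 0.156 (Ifi44) without LPS replicate 2, 0.159 (Ifi44) without saline replicate 1 and 0.247 (Ifi44) without saline replicate 2.

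**Figure D3:**
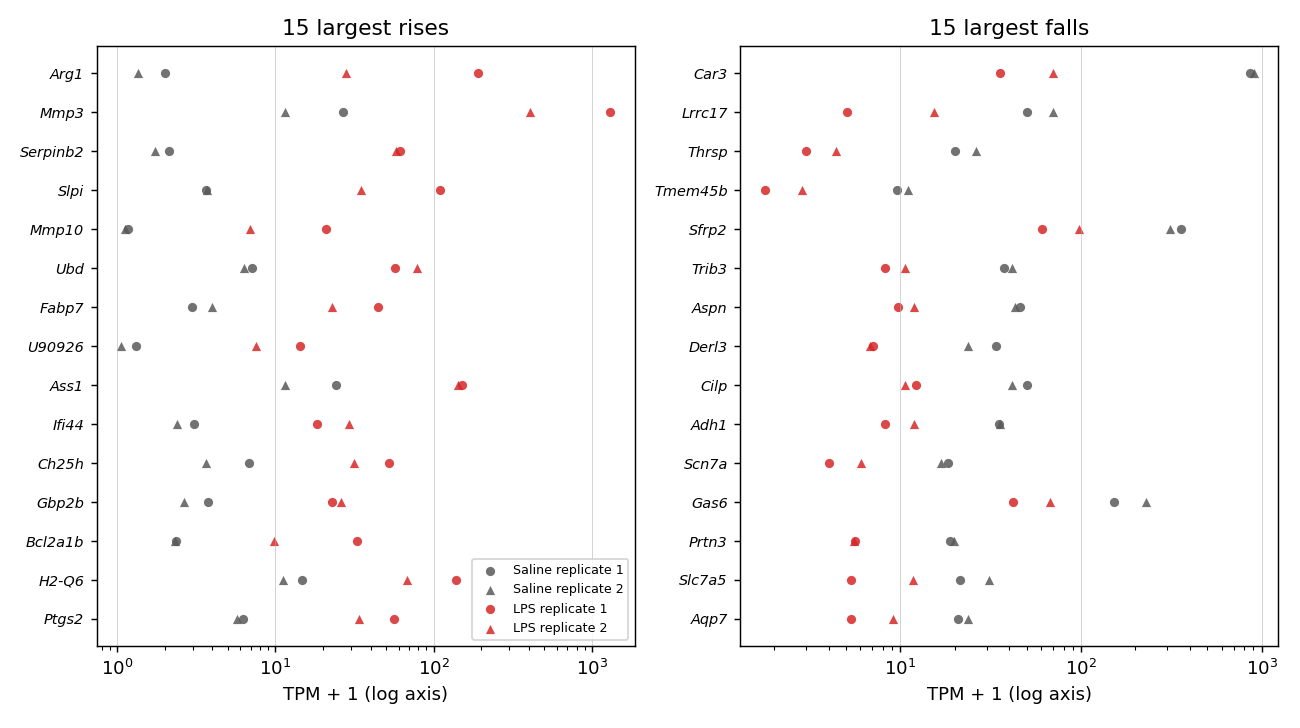
TPM + 1 (log x axis) of the 15 largest rises (left) and 15 largest falls (right) in saline (grey) and LPS (red), circles for replicate 1 and triangles for replicate 2. No LPS value overlaps a saline value, which the rule that chose the genes required, and for 10 of the 15 rises LPS replicate 1 lies over 1.5 times above LPS replicate 2.

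The 2 LPS libraries were not equal in the size of these rises. Of the 384 risen genes, 50 (13.02%) were over 1.5 times as high in LPS replicate 1 as in replicate 2 on the TPM + 1 scale, against 5.15% of all tested genes. The reverse held for 6 (1.56%), against 6.08% of all tested genes. Among the 15 largest rises, 10 were higher by that margin in replicate 1 (Arg1, Mmp3, Slpi, Mmp10, Fabp7, U90926, Ch25h, Bcl2a1b, H2-Q6 and Ptgs2) and 1 in replicate 2 (Ifi44). The summed macrophage markers were also higher in LPS replicate 1, at 1587 against 413 TPM, as they were in saline replicate 1, at 1362 against 456 TPM. None of the 15 macrophage markers was listed at 0 in all 4 libraries, but the leukocyte marker Ptprc was at most 0.144 TPM in any of them. The part of the difference in summed macrophage markers in the rises was not tested.

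The largest falls included genes of fat storage and of the adipocyte surface. Car3, a carbonic anhydrase abundant in adipocytes, fell from 860.0 and 905 TPM with saline to 34.4 and 68.8 TPM with LPS (log2 fold change -4.15, adjusted p = 0.0066). Thrsp, a regulator of fatty acid synthesis, stood at 19.1 and 25.2 TPM with saline and 2.02 and 3.39 TPM with LPS (log2 fold change -2.66 ± 0.33, adjusted p = 0.00555). Aqp7, the channel through which adipocytes release glycerol, stood at 19.7 and 22.7 TPM with saline and 4.33 and 8.11 TPM with LPS (log2 fold change -1.67 ± 0.32, adjusted p = 0.0319). Adh1, an alcohol dehydrogenase that also oxidises retinol, stood at 33.9 and 34.4 TPM with saline and 7.25 and 10.9 TPM with LPS (log2 fold change -1.83 ± 0.18, adjusted p = 0.00225). Tmem45b, a membrane protein, stood at 8.64 and 10.04 TPM with saline and 0.778 and 1.85 TPM with LPS (log2 fold change -2.20 ± 0.27, adjusted p = 0.00551). The summed adipocyte markers were lower in both LPS libraries, at 5509 and 6097 TPM against 8395 and 9666 TPM, and none of them was listed at 0 in all 4 libraries. The part of this shift in these falls was not tested. Adh1 kept the call whichever of the 4 libraries was left out. Adjusted p among the rest reached 0.176 (Aqp7) without LPS replicate 1, 0.126 (Aqp7) without saline replicate 1 and 0.205 (Aqp7) without saline replicate 2.

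Secreted and matrix proteins formed a further group among the falls. Sfrp2, a secreted modulator of Wnt signalling (ENSMUSG00000027996, chromosome 3, 83766321 to 83774316), stood at 358 and 309 TPM with saline and 60.1 and 97.1 TPM with LPS (log2 fold change -2.11 ± 0.23, adjusted p = 0.00315). Cilp, a matrix protein first described in cartilage (ENSMUSG00000042254, chromosome 9, 65265180 to 65280605), stood at 49.2 and 40.4 TPM with saline and 11.2 and 9.61 TPM with LPS (log2 fold change -2.00 ± 0.17, adjusted p = 0.00125). Aspn, the small leucine-rich proteoglycan asporin, stood at 44.8 and 42.2 TPM with saline and 8.71 and 10.96 TPM with LPS (log2 fold change -2.05 ± 0.26, adjusted p = 0.00586). Lrrc17, a secreted leucine-rich repeat protein, stood at 48.9 and 69.4 TPM with saline and 4.07 and 14.4 TPM with LPS (log2 fold change -2.75 ± 0.52, adjusted p = 0.0287). Gas6, the ligand of the TAM receptor kinases that restrain inflammation and promote uptake of dead cells, stood at 151 and 227 TPM with saline and 40.8 and 66.3 TPM with LPS (log2 fold change -1.81 ± 0.30, adjusted p = 0.0174). The calls of Sfrp2 and Cilp held with any 1 library left out. Elsewhere in this group the adjusted p rose to at most 0.112 (Gas6) without LPS replicate 1, 0.101 (Lrrc17) without saline replicate 1 and 0.195 (Lrrc17) without saline replicate 2.

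Trib3, Derl3 and Slc7a5, genes of cell stress and amino acid uptake, fell as well. Trib3, a pseudokinase induced by cell stress, stood at 36.2 and 40.7 TPM with saline and 7.18 and 9.57 TPM with LPS (log2 fold change -2.08 ± 0.18, adjusted p = 0.00126). Derl3, a component of the machinery that removes misfolded proteins from the endoplasmic reticulum, stood at 33.05 and 22.7 TPM with saline and 6.02 and 5.81 TPM with LPS (log2 fold change -2.04 ± 0.17, adjusted p = 0.00113). Slc7a5, the light chain of a transporter for large neutral amino acids, stood at 20.3 and 30.1 TPM with saline and 4.30 and 10.8 TPM with LPS (log2 fold change -1.70 ± 0.37, adjusted p = 0.0482). The last 2 of the 15 were Scn7a, a sodium channel gene, at 17.4 and 15.7 TPM with saline and 3.004 and 5.07 TPM with LPS (log2 fold change -1.83 ± 0.27, adjusted p = 0.00983), and Prtn3, a serine protease of myeloid granules, at 17.9 and 18.9 TPM with saline and 4.64 and 4.54 TPM with LPS (log2 fold change -1.80 ± 0.35, adjusted p = 0.0332). Prtn3 thus fell while Camp and S100a8, the neutrophil markers tested, rose. Among these genes Trib3 and Derl3 stayed past the threshold whichever library was left out. The remaining genes lost it, with an adjusted p of at most 0.186 (Slc7a5) without LPS replicate 1, 0.11 (Prtn3) without LPS replicate 2, 0.143 (Prtn3) without saline replicate 1 and 0.296 (Slc7a5) without saline replicate 2.

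Levels in the BAFF and norepinephrine libraries were set beside these values. The genes were chosen from the LPS libraries, so the direct tests below describe them. By limma, 14 of the 15 largest rises were higher with LPS than with BAFF, where 3.76% of all genes differed in either direction, and 13 were higher than with norepinephrine, where 8.43% did. The exceptions were Ifi44 against both treatments (adjusted p = 0.195 and 0.108) and Arg1 against norepinephrine (adjusted p = 0.0634), which stood at 14.1 and 3.49 TPM there. In 14 of the 15 both LPS libraries lay above all 8 others, as they did for 6.16% of all tested genes.

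Several falls had low levels with norepinephrine or in the libraries labelled APRIL too. All 15 were lower with LPS than with BAFF, and 9 were lower than with norepinephrine. In 4 of the 15 both LPS libraries lay below all 8 others, as they did for 6.62% of all tested genes. In the libraries labelled APRIL, Car3 stood at 120.9 and 31.9 TPM, Lrrc17 at 1.54 and 1.59 TPM and Thrsp at 3.46 and 1.77 TPM, each overlapping or below the LPS values. Derl3 stood at 7.40 and 6.55 TPM with norepinephrine beside 6.02 and 5.81 TPM with LPS (log2 difference -0.20, adjusted p = 0.511). Slc7a5 stood at 5.21 and 7.86 TPM beside 4.30 and 10.8 TPM (log2 difference 0.09, adjusted p = 0.908), and Trib3 at 12.9 and 13.8 TPM beside 7.18 and 9.57 TPM (log2 difference -0.63, adjusted p = 0.077). Aspn, Lrrc17 and Gas6 also missed the threshold, at adjusted p = 0.183, 0.167 and 0.159. A missed threshold does not show that the levels are alike. Adh1 and Prtn3, in contrast, stood at 67.1 and 62.3 and at 32.8 and 24.1 TPM with norepinephrine, above both their saline and their LPS values, and differed between LPS and norepinephrine (log2 difference -2.73, adjusted p = 0.000463, and -2.38, adjusted p = 0.00971).

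**Figure D4:**
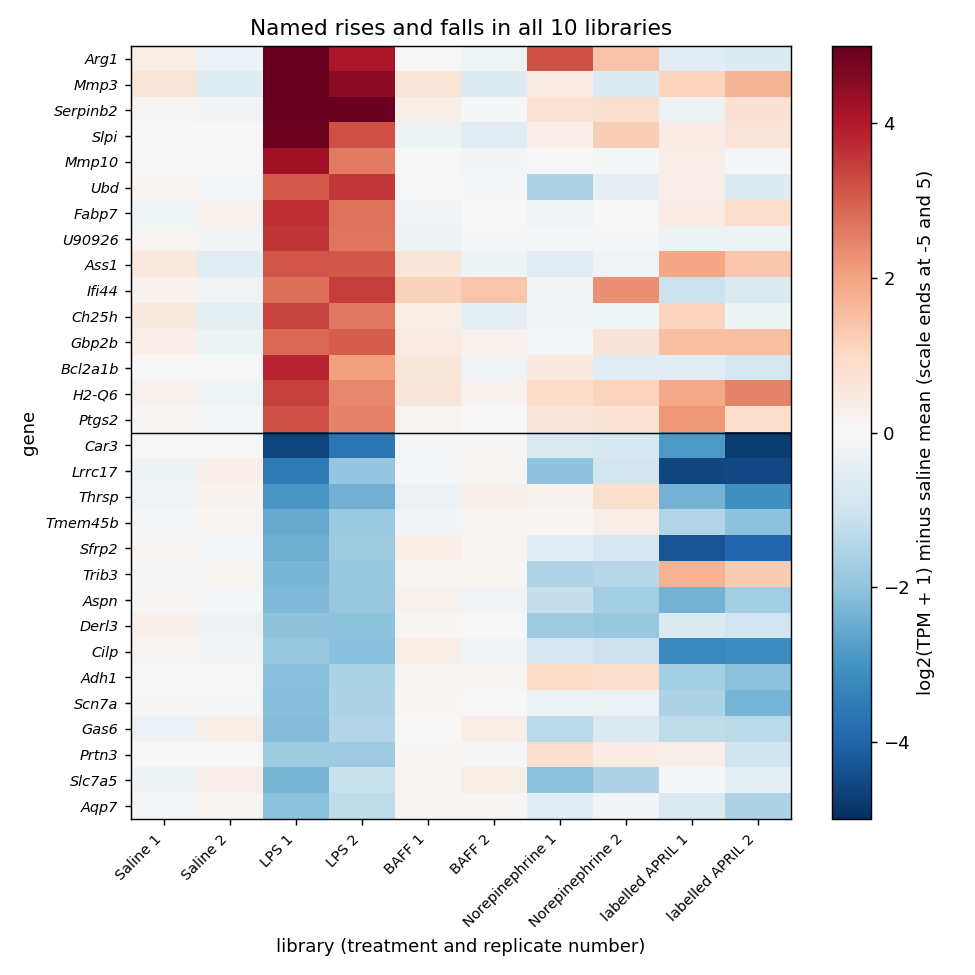
Difference of log2(TPM + 1) from the saline mean (colour, scale ending at -5 and 5) for the 15 largest rises (above the line) and 15 largest falls (below it) in all 10 libraries. Rises are deepest red in the LPS columns, while Derl3, Trib3 and Slc7a5 are blue with both LPS and norepinephrine, and Adh1 is blue with LPS and red with norepinephrine.

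The remaining results follow 29 lists of genes by function, which hold 991 tested genes, of which 120 changed. The lists overlap the 15 rises and falls in part. Each count is given beside 3.27% risen and 1.07% fallen over all genes and a median log2 fold change of -0.02. The lists were chosen with earlier results of these data known. A share above that of all genes may therefore reflect the choice of members and is not a result about the function. A range in brackets gives the lowest and highest number of rises, then of falls, across 10 alternative fits that changed the filter, the pseudocount, the scaling, the trend or the libraries pooled for the spread. After the 3 members of smallest p, further changed members are given with their log2 fold change alone in brackets. Transcripts of Bid, Fpr2, H2-Q5, Icam1, Plpp1, Rab20, Ramp2, Twist2, Txn1, Ube2l6, Ugt1a7c and Vcl share stretches of at least 95% identity, over at least 20% of their length, with another gene model, so their values are uncertain.

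**Figure D5:**
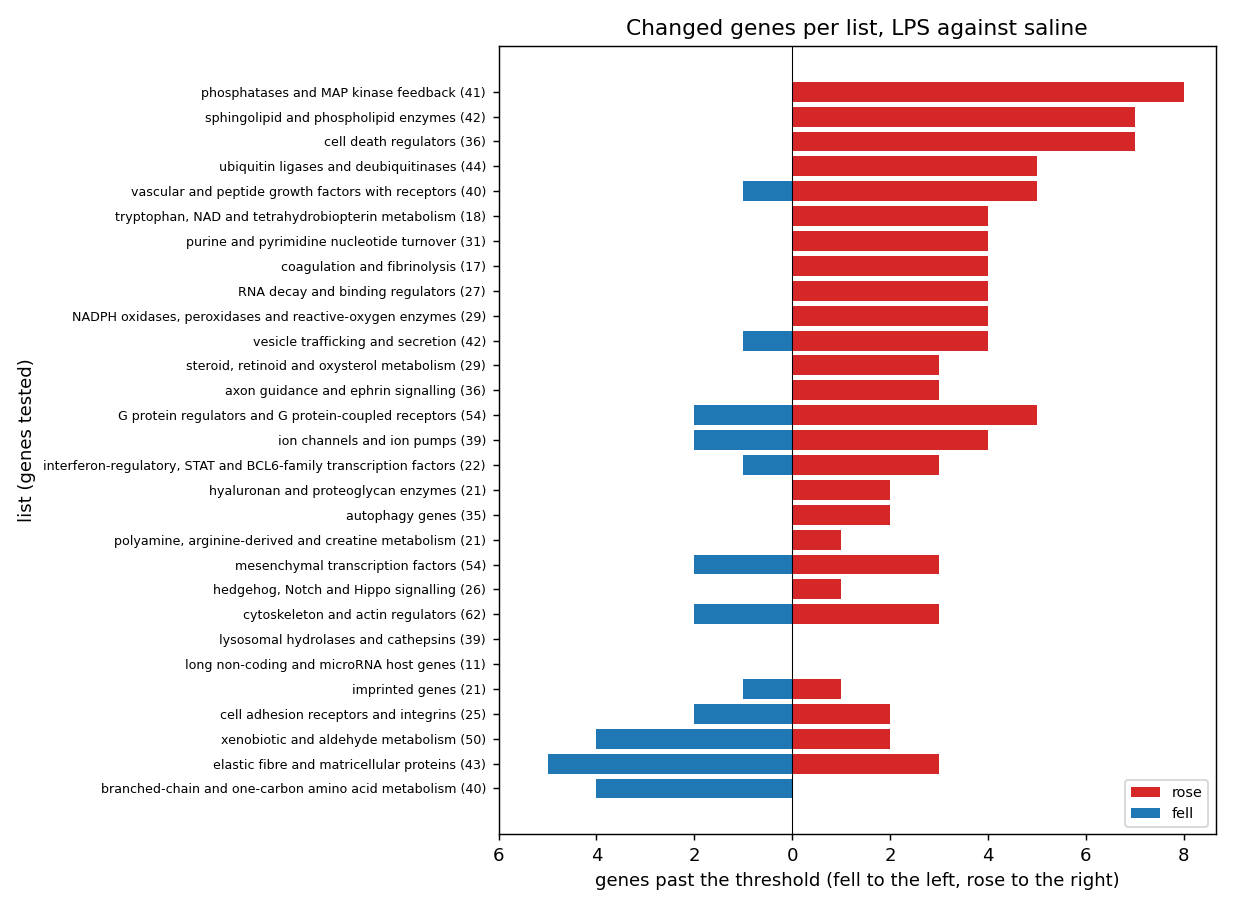
Number of tested genes per list that rose (red, to the right) or fell (blue, to the left) with LPS, the number tested in brackets. Phosphatases and MAP kinase feedback had the most rises (8), elastic fibre and matricellular proteins the most falls (5), and lysosomal hydrolases and long non-coding genes none.

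Members of phosphatase and kinase families such as Ptprn, Ptpn2 and Map3k8 rose. Of 41 phosphatase and MAP kinase feedback genes 8 rose and 0 fell (range 2 to 11 and 0 to 1, 19.5% called, median 0.28). Ptprn, a secretory granule protein of the receptor-type phosphatase family, stood at 7.68 and 8.83 TPM with saline and 27.6 and 29.9 TPM with LPS (log2 fold change 1.69 ± 0.19, adjusted p = 0.00351). Ptpn2, a phosphatase that removes phosphate from JAK and STAT proteins, stood at 18.2 and 19.6 TPM with saline and 36.4 and 29.7 TPM with LPS (log2 fold change 0.77 ± 0.12, adjusted p = 0.0107). Map3k8, the kinase TPL2 that links Toll-like receptors to ERK, stood at 4.59 and 4.51 TPM with saline and 16.1 and 12.6 TPM with LPS (log2 fold change 1.46 ± 0.26, adjusted p = 0.0213). Dusp6 (1.10), Map2k6 (1.31), Trib2 (0.89), Mapkapk3 (0.77) and Spred3 (0.58) made up the 8. Ptprn kept the call with each library left out in turn. In the rest it reached adjusted p = 0.2 (Trib2) without LPS replicate 1, 0.12 (Mapkapk3) without LPS replicate 2, 0.191 (Mapkapk3) without saline replicate 1 and 0.25 (Trib2) without saline replicate 2.

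Zc3h12a, Zc3h12c and N4bp1, which act on RNA, rose. Of 27 genes on the RNA decay and binding list 4 rose and 0 fell (range 2 to 6 and 0, 14.8% called, median 0.07). Zc3h12a, the ribonuclease Regnase-1 that degrades cytokine messages (ENSMUSG00000042677, chromosome 4, 125118423 to 125127840), stood at 10.9 and 6.96 TPM with saline and 64.5 and 69.7 TPM with LPS (log2 fold change 2.81 ± 0.23, adjusted p = 0.000969). Its relative Zc3h12c stood at 1.59 and 1.32 TPM with saline and 3.07 and 3.40 TPM with LPS (log2 fold change 0.79 ± 0.15, adjusted p = 0.0309), and N4bp1 also rose (0.56). The remaining member counted, Rnd1, is not an RNA regulator but a small GTPase that loosens the actin skeleton, counted also with the cytoskeletal genes, and stood at 3.67 and 3.60 TPM with saline and 24.1 and 17.6 TPM with LPS (log2 fold change 2.22 ± 0.25, adjusted p = 0.00351). Zc3h12a and Rnd1 kept the call whichever of the 4 libraries was left out, while Zc3h12c lost it without LPS replicate 1, LPS replicate 2, saline replicate 1 and saline replicate 2 (adjusted p up to 0.226) and N4bp1 lost it without LPS replicate 1, LPS replicate 2, saline replicate 1 and saline replicate 2 (adjusted p up to 0.261).

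Of 44 genes for ubiquitin enzymes 5 rose and 0 fell (range 1 to 6 and 0, 11.4% called, median 0.26). Ube2l6, the conjugating enzyme for the interferon-induced modifier ISG15, stood at 32.7 and 31.5 TPM with saline and 111 and 115 TPM with LPS (log2 fold change 1.79 ± 0.12, adjusted p = 0.000427). Trim47 stood at 40.1 and 30.5 TPM with saline and 67.4 and 64.8 TPM with LPS (log2 fold change 0.90 ± 0.15, adjusted p = 0.0168) and Dtx3l, a ligase that works with a PARP protein in DNA repair and antiviral defence, at 8.07 and 6.79 TPM with saline and 14.04 and 17.2 TPM with LPS (log2 fold change 0.98 ± 0.17, adjusted p = 0.0182). Birc2 (0.91), the inhibitor of apoptosis cIAP1, and Rnf114 (0.56) completed the count. The call of Ube2l6 held with any 1 library left out. Adjusted p among the rest reached 0.167 (Rnf114) without LPS replicate 1, 0.0837 (Dtx3l) without LPS replicate 2, 0.167 (Birc2) without saline replicate 1 and 0.251 (Birc2) without saline replicate 2.

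Cell death regulators rose in both their pro- and anti-death members. Of 36 tested 7 rose and 0 fell (range 4 to 10 and 0, 19.4% called, median 0.33). Ripk2, the kinase below the NOD receptors, stood at 7.95 and 8.07 TPM with saline and 18.3 and 23.8 TPM with LPS (log2 fold change 1.28 ± 0.17, adjusted p = 0.0066), and Nod1, one such receptor, also rose (1.02). Mlkl, the executioner of necroptosis, stood at 17.2 and 18.95 TPM with saline and 40.3 and 39.1 TPM with LPS (log2 fold change 1.09 ± 0.15, adjusted p = 0.00844), and Zbp1, a sensor of Z-form nucleic acids that can start necroptosis, at 11.7 and 9.33 TPM with saline and 53.3 and 69.2 TPM with LPS (log2 fold change 2.43 ± 0.41, adjusted p = 0.0172). Casp4 (1.28), the mouse caspase-11 that detects LPS inside cells, Bid (0.49), which links death receptors to mitochondria, and Bcl2a1b, described above, were the others. Of 35 autophagy genes 2 rose (range 1 to 2 and 0), Dram1 at 76.9 and 72.4 TPM with saline and 150.0 and 170.5 TPM with LPS (log2 fold change 1.09 ± 0.17, adjusted p = 0.014) and Tbk1, a kinase of interferon induction, at 12.6 and 11.7 TPM with saline and 18.5 and 16.3 TPM with LPS (log2 fold change 0.48 ± 0.10, adjusted p = 0.0399). Leaving out single libraries ended each of these calls at least once. At most it came to an adjusted p of 0.246 (Casp4) without LPS replicate 1, 0.155 (Bid) without LPS replicate 2, 0.241 (Bid) without saline replicate 1 and 0.288 (Tbk1) without saline replicate 2.

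Transcription factors changed in both directions. Among 22 interferon-regulatory, STAT and related factors 3 rose and 1 fell (range 3 to 6 and 0 to 1, 18.2% called, median 0.35). Cebpd, an early factor of both the acute-phase response and fat cell differentiation, stood at 45.4 and 49.97 TPM with saline and 93.8 and 96.5 TPM with LPS (log2 fold change 0.98 ± 0.11, adjusted p = 0.00315). Bcl3, an atypical inhibitor-of-NF-kB protein that acts in the nucleus, stood at 76.9 and 76.9 TPM with saline and 117 and 128 TPM with LPS (log2 fold change 0.67 ± 0.10, adjusted p = 0.00887), and Irf1 is given above. Irf4, which in adipocytes links fasting to lipolysis, fell (-1.13). Of 54 mesenchymal factors 3 rose and 2 fell (range 3 to 6 and 0 to 2, 9.26% called). Twist2, a repressor of mesenchymal differentiation, stood at 10.2 and 11.3 TPM with saline and 46.2 and 32.98 TPM with LPS (log2 fold change 1.77 ± 0.19, adjusted p = 0.00292), Prrx1, a homeobox factor of limb mesenchyme, at 106 and 96.6 TPM with saline and 213 and 193 TPM with LPS (log2 fold change 1.00 ± 0.15, adjusted p = 0.0116), and Maff, a small MAF protein, at 18.2 and 14.7 TPM with saline and 45.1 and 31.2 TPM with LPS (log2 fold change 1.15 ± 0.19, adjusted p = 0.0172). Klf15 (-1.25), which favours fat and amino acid metabolism, and Osr2 (-1.31) fell. Tead1, a partner of the Hippo effector YAP, was the 1 changed gene of 26 in hedgehog, Notch and Hippo signalling (range 0 to 1 and 0), at 25.9 and 25.3 TPM with saline and 35.02 and 37.2 TPM with LPS (log2 fold change 0.48 ± 0.11, adjusted p = 0.0495). Cebpd and Twist2 kept the call with each library left out in turn. The remaining genes lost it, with an adjusted p of at most 0.194 (Osr2) without LPS replicate 1, 0.152 (Tead1) without LPS replicate 2, 0.226 (Osr2) without saline replicate 1 and 0.296 (Tead1) without saline replicate 2.

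Sod2, Prdx6 and Sod3 were among the redox genes that rose. Of 29 genes for oxidases, peroxidases and related enzymes 4 rose and 0 fell (range 2 to 5 and 0 to 4, 13.8% called). Without the libraries labelled APRIL 5 rose and 4 fell, so the absence of falls did not hold there. The rises were Sod2 and 3 others. Prdx6, a peroxiredoxin that also acts on phospholipids, stood at 162 and 152 TPM with saline and 380.4 and 285 TPM with LPS (log2 fold change 1.06 ± 0.15, adjusted p = 0.00794), Sod3, the extracellular superoxide dismutase, at 104 and 97.2 TPM with saline and 227 and 193 TPM with LPS (log2 fold change 1.05 ± 0.16, adjusted p = 0.013), and Txn1, thioredoxin, also rose (0.65). Of 18 genes of tryptophan, NAD and tetrahydrobiopterin metabolism 4 rose (range 1 to 4 and 0, 22.2% called). Nadk, which phosphorylates NAD to NADP, stood at 91.8 and 92.3 TPM with saline and 143 and 149 TPM with LPS (log2 fold change 0.66 ± 0.10, adjusted p = 0.0135). Gch1, the first enzyme of tetrahydrobiopterin synthesis, stood at 1.90 and 1.08 TPM with saline and 7.82 and 4.55 TPM with LPS (log2 fold change 1.51 ± 0.27, adjusted p = 0.0239). Cd38, which consumes NAD at the cell surface, stood at 1.02 and 0.972 TPM with saline and 15.2 and 4.67 TPM with LPS (log2 fold change 2.26 ± 0.43, adjusted p = 0.03). Summed macrophage markers were higher in replicate 1 both with LPS (1587 against 413 TPM) and with saline (1362 against 456 TPM). The part of this difference in Cd38 was not tested. Parp14, an ADP-ribosyltransferase, rose by 1.31. Sod2 kept the call whichever of the 4 libraries was left out. In the rest it reached adjusted p = 0.176 (Txn1) without LPS replicate 1, 0.121 (Parp14) without LPS replicate 2, 0.137 (Txn1) without saline replicate 1 and 0.237 (Parp14) without saline replicate 2.

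The purine receptors Adora2b and P2rx4 and the nucleotide enzymes Upp1 and Samhd1 rose. Of 31 tested 4 rose and 0 fell (range 2 to 7 and 0, 12.9% called). Adora2b, the low-affinity adenosine receptor, stood at 3.42 and 2.81 TPM with saline and 17.7 and 11.8 TPM with LPS (log2 fold change 1.91 ± 0.24, adjusted p = 0.00555). Upp1, uridine phosphorylase, stood at 1.73 and 2.72 TPM with saline and 31.04 and 12.5 TPM with LPS (log2 fold change 2.70 ± 0.37, adjusted p = 0.00761), with LPS values that lay far apart. P2rx4, an ATP-gated channel, stood at 80.8 and 66.6 TPM with saline and 168 and 134 TPM with LPS (log2 fold change 1.03 ± 0.17, adjusted p = 0.0169), and Samhd1, which hydrolyses deoxynucleotides, rose by 0.60. Every one of the calls given here was lost when some single library was left out. The highest adjusted p was 0.191 (Samhd1) without LPS replicate 1, 0.126 (Samhd1) without saline replicate 1 and 0.278 (Samhd1) without saline replicate 2.

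S1pr3, Smpd1 and Plpp1 led the rises among membrane lipid genes. Of 42 genes for sphingolipid and phospholipid enzymes and receptors 7 rose and 0 fell (range 3 to 9 and 0 to 1, 16.7% called, median 0.16). S1pr3, a receptor for sphingosine 1-phosphate, stood at 36.3 and 30.9 TPM with saline and 94.4 and 107 TPM with LPS (log2 fold change 1.55 ± 0.13, adjusted p = 0.00122). Smpd1, the acid sphingomyelinase that makes ceramide, stood at 31.04 and 31.8 TPM with saline and 60.7 and 58.9 TPM with LPS (log2 fold change 0.91 ± 0.10, adjusted p = 0.00329). Plpp1, a phosphatase of lipid phosphates, stood at 76.2 and 79.2 TPM with saline and 162 and 133 TPM with LPS (log2 fold change 0.91 ± 0.15, adjusted p = 0.0153). Pla2g4a (1.19), the cytosolic phospholipase that releases arachidonate, Sgms2 (0.82), which makes sphingomyelin, Plpp3 (0.74) and Sgpp1 (0.69) also rose. Of 29 genes of steroid, retinoid and oxysterol metabolism 3 rose (range 2 to 4 and 0 to 1). These were Ch25h, given above, Cyp1b1, a cytochrome that oxidises oestrogens and retinoids (ENSMUSG00000024087, chromosome 17, 79701537 to 79715061), at 61.9 and 58.7 TPM with saline and 242 and 229.7 TPM with LPS (log2 fold change 1.95 ± 0.22, adjusted p = 0.0038), and Rdh11, a retinal reductase, at 15.5 and 15.7 TPM with saline and 22.1 and 22.8 TPM with LPS (log2 fold change 0.50 ± 0.11, adjusted p = 0.0483). Among these genes S1pr3, Smpd1 and Cyp1b1 stayed past the threshold whichever library was left out. Adjusted p among the rest reached 0.257 (Sgpp1) without LPS replicate 1, 0.142 (Plpp3) without LPS replicate 2, 0.224 (Rdh11) without saline replicate 1 and 0.321 (Sgpp1) without saline replicate 2.

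Serpinb2, Thbd, Procr and Tfpi2 rose among the coagulation genes. Of 17 coagulation and fibrinolysis genes 4 rose and 0 fell (range 3 to 5 and 0 to 1, 23.5% called, median 0.15). Thbd, thrombomodulin, which turns thrombin into an activator of protein C, stood at 7.34 and 6.87 TPM with saline and 21.2 and 23.00 TPM with LPS (log2 fold change 1.51 ± 0.15, adjusted p = 0.00206). Procr, the endothelial protein C receptor, also rose (2.06), from 8.79 and 6.19 to 52.9 and 21.7 TPM. Tfpi2, a Kunitz-type protease inhibitor, stood at 14.1 and 11.2 TPM with saline and 32.1 and 27.6 TPM with LPS (log2 fold change 1.18 ± 0.22, adjusted p = 0.0268). The endothelial markers summed to 40.0 and 46.8 TPM with saline and 33.4 and 34.3 TPM with LPS, with 0 of 7 tested past the threshold by limma. Serpinb2 and Thbd kept the call with each library left out in turn, while Procr lost it without LPS replicate 1, saline replicate 1 and saline replicate 2 (adjusted p up to 0.192) and Tfpi2 lost it without LPS replicate 1, LPS replicate 2, saline replicate 1 and saline replicate 2 (adjusted p up to 0.198).

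Matrix genes changed in both directions. Of 43 elastic fibre and matricellular genes 3 rose and 5 fell (range 1 to 3 and 2 to 7, 18.6% called, median -0.07). Ltbp2, a protein of microfibrils, stood at 333 and 322 TPM with saline and 541 and 614 TPM with LPS (log2 fold change 0.81 ± 0.13, adjusted p = 0.0128), and Nid2 (0.99) and Emilin1 (0.66) rose. Beside Cilp and Aspn the falls were the matricellular genes Ccn5 (-1.40) and Ccn3 (-1.36) and the fibrillin gene Fbn2 (-1.28). Of 21 hyaluronan and proteoglycan genes 2 rose (range 1 to 5 and 0), Tnfaip6, which binds hyaluronan and modifies it at sites of inflammation, at 4.94 and 5.37 TPM with saline and 15.2 and 13.3 TPM with LPS (log2 fold change 1.31 ± 0.14, adjusted p = 0.00287), and Chst11, a chondroitin sulfotransferase, at 9.21 and 9.23 TPM with saline and 16.1 and 14.8 TPM with LPS (log2 fold change 0.69 ± 0.12, adjusted p = 0.0221). Cilp and Tnfaip6 kept the call whichever of the 4 libraries was left out. The remaining genes lost it, with an adjusted p of at most 0.174 (Emilin1) without LPS replicate 1, 0.135 (Ccn3) without LPS replicate 2, 0.196 (Ccn3) without saline replicate 1 and 0.262 (Emilin1) without saline replicate 2.

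Among 25 adhesion receptors 2 rose and 2 fell (range 1 to 5 and 1 to 4, 16% called). The collagen-binding integrin chains Itga11 and Itga1 fell, from 109 and 91.9 to 55.2 and 48.8 TPM (log2 fold change -0.93 ± 0.13, adjusted p = 0.00921) and from 9.31 and 10.8 to 6.32 and 5.45 TPM (log2 fold change -0.68 ± 0.13, adjusted p = 0.0286). Itgav, the chain of receptors for vitronectin and latent TGF-beta, rose from 82.9 and 78.96 to 122 and 138 TPM (log2 fold change 0.68 ± 0.10, adjusted p = 0.0107). Icam1, a ligand for leukocyte integrins, rose from 10.6 and 10.1 to 52.9 and 36.3 TPM (1.98). Every one of the calls given here was lost when some single library was left out. The upper values of adjusted p were 0.231 (Icam1) without LPS replicate 1, 0.106 (Itga1) without LPS replicate 2, 0.167 (Icam1) without saline replicate 1 and 0.229 (Itga1) without saline replicate 2.

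The secreted growth factors Fgf7, Gdnf and Angpt1 were among those that rose. Of 40 growth factors and receptors 5 rose and 1 fell (range 2 to 7 and 0 to 2, 15% called, median 0.25). Fgf7, keratinocyte growth factor, stood at 44.8 and 56.3 TPM with saline and 141 and 129 TPM with LPS (log2 fold change 1.41 ± 0.25, adjusted p = 0.0239). Gdnf, the glial cell line-derived neurotrophic factor, stood at a low 0.523 and 0.388 TPM with saline and 2.58 and 2.08 TPM with LPS (log2 fold change 1.19 ± 0.17, adjusted p = 0.00895). Angpt1, the ligand that steadies vessels through TIE2, stood at 3.47 and 3.64 TPM with saline and 6.84 and 6.58 TPM with LPS (log2 fold change 0.76 ± 0.13, adjusted p = 0.0199), the progenitor receptor Pdgfra rose (0.92), and the lymphatic growth factor Vegfd fell (-0.71). Of 36 axon guidance genes 3 rose (range 1 to 3 and 0 to 1), Sema4a as above, Draxin, a repellent cue, at 3.81 and 4.47 TPM with saline and 10.7 and 9.92 TPM with LPS (log2 fold change 1.14 ± 0.17, adjusted p = 0.0121), and the ephrin receptor Epha4 at 2.38 and 1.42 TPM with saline and 9.40 and 5.51 TPM with LPS (log2 fold change 1.52 ± 0.29, adjusted p = 0.0309). Leaving out single libraries ended each of these calls at least once. The highest adjusted p was 0.175 (Epha4) without LPS replicate 1, 0.124 (Pdgfra) without LPS replicate 2, 0.195 (Vegfd) without saline replicate 1 and 0.222 (Pdgfra) without saline replicate 2.

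Receptors and channels changed in both directions. Of 54 G protein-coupled receptors and regulators 5 rose and 2 fell (range 4 to 8 and 0 to 3, 13% called). Ackr3, a scavenging receptor for the chemokine CXCL12 (ENSMUSG00000044337, chromosome 1, 90203980 to 90216751), stood at 13.4 and 10.1 TPM with saline and 47.5 and 45.9 TPM with LPS (log2 fold change 1.92 ± 0.14, adjusted p = 0.000767). Gng12, a G protein gamma subunit, stood at 92.3 and 90.3 TPM with saline and 164 and 154 TPM with LPS (log2 fold change 0.80 ± 0.10, adjusted p = 0.00584), and Bdkrb1, the inducible kinin receptor, at 0.790 and 0.770 TPM with saline and 3.70 and 3.32 TPM with LPS (log2 fold change 1.34 ± 0.19, adjusted p = 0.00944). The serotonin receptor Htr2a (0.86) and Ramp2 (0.86) rose, and Rgs2 (-1.27) and Adgre5 (-0.68) fell. Of 39 channels and pumps 4 rose and 2 fell (range 0 to 5 and 1 to 3, 15.4% called). The falls were the calcium channel subunit Cacna1a, at 27.8 and 21.97 TPM with saline and 13.3 and 14.1 TPM with LPS (log2 fold change -0.81 ± 0.16, adjusted p = 0.0327), and Scn7a, given above. Kcnj15 (1.58), Cacnb3 (0.83) and Clcn5 (0.62) were among the rises. Ackr3 kept the call with each library left out in turn. Adjusted p among the rest reached 0.246 (Cacnb3) without LPS replicate 1, 0.161 (Clcn5) without LPS replicate 2, 0.191 (Cacna1a) without saline replicate 1 and 0.31 (Adgre5) without saline replicate 2.

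Bcat2, Gpt and Asns, genes of amino acid metabolism, fell. Of 40 genes of branched-chain and one-carbon amino acid metabolism 0 rose and 4 fell by limma (range 0 to 1 and 2 to 9, 10% called, median -0.38), with 2 higher and 16 lower at p under 0.05 before adjustment. At that unadjusted limma p, 1350 of all 13179 tested genes were higher and 929 were lower. Bcat2, which starts the breakdown of branched-chain amino acids in mitochondria, stood at 70.4 and 68.01 TPM with saline and 36.5 and 40.1 TPM with LPS (log2 fold change -0.84 ± 0.13, adjusted p = 0.0127). Gpt, alanine aminotransferase, stood at 9.09 and 7.22 TPM with saline and 3.44 and 4.08 TPM with LPS (log2 fold change -0.94 ± 0.15, adjusted p = 0.0158), Asns, asparagine synthetase, at 116 and 146 TPM with saline and 51.03 and 75.3 TPM with LPS (log2 fold change -1.06 ± 0.20, adjusted p = 0.0312), and Mccc1, a subunit of a leucine-breakdown enzyme, also fell (-0.54). Of 50 xenobiotic and aldehyde genes 2 rose and 4 fell (range 0 to 2 and 3 to 8, 12% called). Beside Adh1 these falls were the sulfotransferase Sult1a1, at 2.83 and 3.35 TPM with saline and 0.621 and 0.908 TPM with LPS (log2 fold change -1.22 ± 0.16, adjusted p = 0.0066), the cytochrome Cyp4b1, at 6.20 and 5.14 TPM with saline and 0.783 and 1.11 TPM with LPS (log2 fold change -1.78 ± 0.28, adjusted p = 0.0144), and Gstk1 (-0.97). Cyp4b1, like Adh1, stood higher with norepinephrine, at 12.5 and 12.6 TPM, and differed between LPS and norepinephrine (log2 difference -2.80, adjusted p = 0.00214). The monooxygenase Fmo1 (1.60) and Ugt1a7c (1.18), whose exons are shared with other members of its locus, rose. Adh1 kept the call whichever of the 4 libraries was left out. Elsewhere in this group the adjusted p rose to at most 0.209 (Ugt1a7c) without LPS replicate 1, 0.0536 (Ugt1a7c) without LPS replicate 2, 0.189 (Mccc1) without saline replicate 1 and 0.23 (Fmo1) without saline replicate 2.

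Trafficking and cytoskeletal genes changed singly. Of 42 trafficking genes 4 rose and 1 fell (range 2 to 6 and 0 to 2, 11.9% called). Rab32, a GTPase of lysosome-related organelles that acts against intracellular bacteria, stood at 15.9 and 14.2 TPM with saline and 38.96 and 37.1 TPM with LPS (log2 fold change 1.28 ± 0.10, adjusted p = 0.000969), and Rab20, a GTPase of maturing phagosomes, at 3.18 and 2.49 TPM with saline and 9.48 and 6.05 TPM with LPS (log2 fold change 1.17 ± 0.20, adjusted p = 0.0179). Cav1, the main coat protein of caveolae and abundant in adipocytes, stood at 476 and 508 TPM with saline and 233 and 296 TPM with LPS (log2 fold change -0.90 ± 0.16, adjusted p = 0.0213), and at 267 and 303 TPM with norepinephrine. Stx11 (1.41) rose as well. Of 62 cytoskeletal genes 3 rose and 2 fell (range 2 to 4 and 1 to 3, 8.06% called). Besides Rnd1 these were the GTPase Rhoj, at 33.4 and 33.8 TPM with saline and 53.03 and 55.98 TPM with LPS (log2 fold change 0.68 ± 0.09, adjusted p = 0.00689), Gsn, the actin-severing protein gelsolin, at 1218 and 1288 TPM with saline and 697 and 642 TPM with LPS (log2 fold change -0.90 ± 0.16, adjusted p = 0.0193), Tagln2 (0.89) and Vcl (-0.40). The calls of Rab32 and Rnd1 held with any 1 library left out. The remaining genes lost it, with an adjusted p of at most 0.217 (Stx11) without LPS replicate 1, 0.134 (Vcl) without LPS replicate 2, 0.225 (Vcl) without saline replicate 1 and 0.262 (Vcl) without saline replicate 2.

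By limma 0 of 39 lysosomal hydrolases and cathepsins passed, with 7 higher and 1 lower at p under 0.05 before adjustment, and 2 passed when LPS replicate 2 was left out. The smallest p was that of Npc2, a cholesterol carrier of lysosomes, at 216 and 193 TPM with saline and 383 and 282 TPM with LPS (log2 fold change 0.68 ± 0.16, adjusted p = 0.0595), and it passed without LPS replicate 2 (adjusted p = 0.0302). Likewise 0 of 11 long non-coding genes passed, with 0 higher and 2 lower at p under 0.05 before adjustment. Both unadjusted counts stand beside 1350 higher and 929 lower of all 13179 tested genes. Of the 11, Gas5 came closest, at 537 and 582 TPM with saline and 353 and 414 TPM with LPS (log2 fold change -0.55 ± 0.13, adjusted p = 0.0629), and passed in the fit without the libraries labelled APRIL (adjusted p = 0.0243). Of 21 imprinted genes Dcn rose and Dio3 fell. Dcn, the matrix proteoglycan decorin and a fibroblast marker, stood at 173 and 128 TPM with saline and 1184 and 682 TPM with LPS (log2 fold change 2.59 ± 0.34, adjusted p = 0.00656). Dio3, the deiodinase that inactivates thyroid hormone, stood at 20.97 and 20.7 TPM with saline and 8.19 and 9.80 TPM with LPS (log2 fold change -1.13 ± 0.14, adjusted p = 0.00562), and at 8.56 and 11.1 TPM with norepinephrine. Leaving out single libraries ended each of these calls at least once. Dcn lost it without saline replicate 2 (adjusted p = 0.0673) and Dio3 lost it without saline replicate 2 (adjusted p = 0.0611).

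Part of the changed genes lay beside each other on the chromosome. Of 418 risen genes with a position, set-aside genes included, 98 (23.4%) lay within 100 kb of another risen gene. Among all tested genes 9.14% lay that near to a risen gene. For the fallen genes the shares were 11.4% (16 of 140) and 3.72%. The groups named here were chosen after their values were seen and lie outside the set-aside genes, while neighbouring Ccl, Cxcl and Saa genes also count among the 98. Gbp7, Gbp3, Gbp2b and Gbp2 lie side by side on chromosome 3 (142530342 to 142638008), and all 4 rose, with log2 fold changes of 1.00, 2.16, 2.95 and 2.63. H2-Q4, H2-Q5, H2-Q6 and H2-Q7 on chromosome 17 (35379617 to 35443773) rose by 1.77, 2.03, 2.92 and 2.51, with shared sequence between them. The formyl peptide receptor genes Fpr1 and Fpr2 (chromosome 17, 17876471 to 17893952) were low with saline and passed the filter only through the LPS libraries. Fpr1 stood at 0.148 and 0.0633 TPM with saline and 4.77 and 2.45 TPM with LPS, and Fpr2 at 0.290 and 0.0521 TPM with saline and 11.2 and 2.43 TPM with LPS. Jak2, a kinase of cytokine receptors, and Cd274, the immune checkpoint ligand PD-L1, share a stretch of chromosome 19 (29251828 to 29388095). Of the 4 genes tested in that stretch these 2 rose, and Insl6 and Plgrkt were not among the risen genes. Jak2 stood at 34.5 and 37.8 TPM with saline and 108 and 88.3 TPM with LPS (log2 fold change 1.41, adjusted p = 0.0289), and Cd274 at 2.88 and 2.24 TPM with saline and 17.2 and 6.31 TPM with LPS (log2 fold change 1.70, adjusted p = 0.0464). Gbp2b, Gbp2 and H2-Q4 kept the call with each library left out in turn. For the others the highest adjusted p was 0.178 (Jak2) without LPS replicate 1, 0.171 (Gbp7) without LPS replicate 2, 0.184 (Gbp7) without saline replicate 1 and 0.264 (Gbp7) without saline replicate 2.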

How the data were processed

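RNA-seq of 10 libraries in 5 groups of 2 was used, and the LPS and saline groups were compared. The authors deposited TPM per Ensembl gene, made with kallisto on mm10 per the submitters' processing notes; the version, the annotation and how transcripts were summed to genes are not given in the sources used here. TPM holds no read depth, so no counting interval is given, and a gene's TPM also moves when abundant genes move. Of 28987 IDs, 27458 were matched to GENCODE M21 symbols. Genes at 1 TPM or more in 2 of the 4 libraries were analysed as log2(TPM + 1), the + 1 being the pseudocount.

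The test was limma (version 3.58.1, with R 4.3.3), its variance trend on the mean switched on, over all 10 libraries as 5 group means, so that all groups share 1 estimate of spread, with Benjamini-Hochberg adjustment over all 13179 tested genes at 0.05. It was also run on simulated data in which libraries varied independently. That run does not measure how well the calls hold in these libraries. Symbol patterns set aside cytokines, chemokines, complement and acute-phase genes, and these patterns also take interferon receptors and Toll-like receptors. Also taken are innate response genes such as Nos2, Acod1, Cd14 and Steap4, the NF-kB inhibitor genes Nfkbia and Nfkbiz, and the adipocyte marker Cfd. None of these could be named or counted among the other genes. Genes were named by a rule: outside the set-aside genes, the 15 largest rises and falls past the threshold with a mean of at least 5 TPM and no overlap between groups, leaving out unnamed gene models and pseudogenes, then up to 3 changed members of each list by p (or the member of smallest p where none changed), then Tlr4. The comparison, its genes and the lists were chosen with earlier results of these data known.

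Added after values were seen were the further changed list members, the neighbours within 100 kb, the ratio of 1.5 between LPS libraries, the comparison with the other 8 libraries, the transcript shares, the search for copies (BLAST 2.17.0) and the choice of printed promoters. A few of the genes so chosen are not reported here, though they stay in the counts. Alternatives changed the filter, pseudocount, scaling, libraries in the fit and trend, and added a replicate block. Promoters are from RefSeq (GRCm38.p6).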

Additional observations from a re-analysis of the deposited data

How the results depend on the processing

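Values are genes changed among all tested genes, then outside the set-aside genes (572 and 523 as reported). The 4 LPS and saline libraries alone gave 366 and 325, and the fit without the libraries labelled APRIL gave 979 and 927. Asking also for a 2-fold change left 349 of the 572. Leaving out 1 library in turn gave 112 to 401 and 84 to 358, lowest without saline replicate 2 (112 and 84), then 180 and 148 without LPS replicate 1 and 185 and 150 without saline replicate 1. The lone library of a group is then assumed to vary like the other groups. Filters, pseudocounts, median-ratio scaling, no trend and no mitochondrial genes stayed within 1.5 times, from 444 and 403 without a filter to 617 and 568 with median-ratio scaling. Without mitochondrially encoded genes 65.4% of changed genes rose, beside 75.3% as reported, and the median log2 fold change of all genes was -0.09. None of the 155 genes chosen for naming reversed in any of these alternatives.

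With the replicate number of the labels as a block the counts were 731 and 678, and of the genes chosen for naming Casp4, Clcn5, Osr2, Rdh11 and Tead1 lost their calls (adjusted p = 0.0542 to 0.0609), while Npc2 passed (0.0166). Of the 39 lysosomal genes 5 rose under the block, where 0 had, and 4 coagulation genes rose and 1 fell. Deviations of replicate 1 from the group means correlated at 0.316 to 0.525 over the 6 pairs of groups other than APRIL (0.374 between LPS and saline) and at -0.118 to 0.029 between APRIL and the other groups. The labels tie a number to no shared animal or day, so the block is given only as an alternative. Without read counts, precision at low TPM cannot be stated.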
